A study of Homo sapiens with 3 samples.

Results

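Fatty acid elongation was followed through 10 genes on 3 arrays of the human colorectal cancer cell line HCT-116. They were the elongases ELOVL1 to ELOVL7 and the enzymes HSD17B12, HACD3 and TECR. Members were chosen by gene symbol, through probe sets that the platform annotation gives to exactly 1 gene. Of the 10 genes, 9 had such a probe set, 22 probe sets in all, against 19775 genes and 41091 probe sets on the whole array. The arrays held SCD1-WT cells treated with T-3764518, an inhibitor of the desaturase SCD1, at 100 nM for 24 h, SCD1-KO cells made with CRISPR-Cas9 and treated with DMSO, and SCD1-WT cells treated with DMSO. The dose, and the vehicle and time of the SCD1-KO cells, were taken from the study's methods, since the labels give none. SCD1-KO cells were grown from cells plated at limiting density after transfection with a pair of guides, and selected for loss of a part of the SCD1 locus, so a difference that belongs to a clone cannot be told apart from loss of SCD1. Each condition had 1 array. Differences between arrays therefore carry no replicate error, and no test was run.

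Elongation adds a pair of carbons to a fatty acyl-CoA in the membrane of the endoplasmic reticulum. An elongase of the ELOVL family condenses the acyl-CoA with malonyl-CoA, HSD17B12 reduces the resulting ketone, a dehydratase of the HACD family removes water, and TECR reduces the remaining double bond. The elongases differ in the chains they accept. ELOVL6 takes palmitate, the product of fatty acid synthase, to stearate, from which SCD1 makes oleate. ELOVL1, ELOVL3 and ELOVL7 act on longer saturated and monounsaturated chains, ELOVL2 and ELOVL5 on polyunsaturated chains, and ELOVL4 on the very long chains of retina, brain and skin.

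A gene is read by 1 or several probe sets, and each value is a MAS5 signal, a background-corrected brightness on a linear scale. Over all probe sets the trimmed mean signal was 500.1 on every array, and the median was 56.7 with T-3764518, 62.4 in knockout cells and 68.8 with DMSO. A probe set was kept where its mean log2 signal over the 3 arrays reached that of the median probe set, which corresponds to a signal of 56.6, and is otherwise called dim. The ratio of a gene is the median over its kept probe sets, and the gene is called higher or lower at 2-fold or more, a log2 ratio of 1. Levels of different genes are not compared, because probe sets differ in how brightly they bind. For T-3764518 over DMSO, the SD between log2 ratios of probe sets of 1 gene was 0.57 among the dimmest quintile of genes and 0.26 among the brightest, and it does not cover differences between cultures. Of 7 markers of colon epithelium, 7 had a kept probe set. Their summed signal was 91603 with T-3764518, 78326 in knockout cells and 83008 with DMSO, with VIL1 at 68.5, 85.8 and 72.3 and CDX2 at 60.9, 115 and 59.6 on the same arrays. Of the markers of other cell types, 1 of 3 was kept for leukocytes, 1 of 3 for fibroblasts, 1 of 2 for endothelium and 0 of 2 for hepatocytes, and the fibroblast sum was 1481 with T-3764518, 1147 in knockout cells and 1170 with DMSO, nearly all of it COL1A1. Among the epithelial markers, CDH1 had a signal of 1285 in SCD1-KO cells against 5038 with DMSO and EPCAM 6840 against 16859, while KRT8 had 15723 against 12259, KRT18 28120 against 23407 and KRT19 26158 against 25313. The part of these differences in the ratios below was not tested. The 3′ probe set of ACTB over its 5′ probe set, a measure of RNA degradation, stood at 1.36 with T-3764518, 1.54 in knockout cells and 1.30 with DMSO. In extracts of whole cultures, fewer cells that express a gene and less RNA per cell cannot be told apart.

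Promoter windows are shown for the 3 elongase genes whose ratio with T-3764518 lay farthest from DMSO, so that the letters can be set beside the signals. They run from 250 bases before to 50 bases after the start site in the RefSeq table (GRCh38.p14), 5′ to 3′ on the strand of the gene, with matches to the searched motifs in capitals. For ELOVL3 and ELOVL6 this start site lies 1532 and 587 bases inside the outermost start of the gene.
ELOVL6 promoter, chr4:110198566-110198865, minus strand: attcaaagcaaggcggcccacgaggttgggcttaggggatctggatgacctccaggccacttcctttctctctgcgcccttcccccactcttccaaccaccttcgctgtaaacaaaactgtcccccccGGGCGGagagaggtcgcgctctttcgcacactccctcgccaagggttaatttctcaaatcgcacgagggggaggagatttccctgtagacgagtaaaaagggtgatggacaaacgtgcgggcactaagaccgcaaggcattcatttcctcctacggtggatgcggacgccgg
ELOVL3 promoter, chr10:102226049-102226348, plus strand: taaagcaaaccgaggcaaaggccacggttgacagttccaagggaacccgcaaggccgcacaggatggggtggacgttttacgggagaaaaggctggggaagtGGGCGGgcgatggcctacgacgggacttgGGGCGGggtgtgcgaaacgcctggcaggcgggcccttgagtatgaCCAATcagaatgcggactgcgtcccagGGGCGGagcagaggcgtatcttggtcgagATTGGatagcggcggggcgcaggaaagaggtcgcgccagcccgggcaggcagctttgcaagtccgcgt
ELOVL5 promoter, chr6:53348901-53349200, minus strand: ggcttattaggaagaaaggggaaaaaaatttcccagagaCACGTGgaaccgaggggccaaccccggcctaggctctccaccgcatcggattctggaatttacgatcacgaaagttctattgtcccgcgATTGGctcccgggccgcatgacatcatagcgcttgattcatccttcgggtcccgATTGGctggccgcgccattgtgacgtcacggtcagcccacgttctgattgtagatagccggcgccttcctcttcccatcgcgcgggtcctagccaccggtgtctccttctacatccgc
The motifs were TCACNCCAC, a form of the sterol element bound by SREBP, CCAAT, the box bound by NF-Y, CACGTG, an E-box, and GGGCGG, the GC box bound by Sp1, each on both strands. No matches overlapped in these windows. ELOVL6 held only GGGCGG, 1 match starting 122 bases before the start site. ELOVL3 held 2 CCAAT and 3 GGGCGG matches, and ELOVL5 held 2 CCAAT matches and 1 CACGTG match. Windows were matched by symbol for 9 of the 10 genes, all but HSD17B12, with 11 windows in all. TCACNCCAC was found in 0 of the 11 and in 1.13% of all 35116 windows of the table. CCAAT was in 7 of the 11 windows (34.6% of all windows), CACGTG in 2, of ELOVL4 and ELOVL5 (7.26%), and GGGCGG in 10 (45%). The 11 include 2 overlapping windows of TECR, which hold the same matches. Their median GC content was 67%, against 58.7% over all windows, and its part in the GGGCGG count was not tested. A match is a run of letters and not a bound site.

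With T-3764518, 1 of the 7 genes that had a kept probe set was called higher, HSD17B12, and 1 was called lower, ELOVL3. Of all 12321 kept genes, 2.18% were called higher and 3.3% lower in the same ratio, 5.49% in all, and after scaling the arrays to 1 median 551 were called higher and 163 lower in place of 269 and 407. In SCD1-KO cells HSD17B12 was again the 1 gene called higher and 0 of the 7 were called lower, where 3.12% and 3.93% of all kept genes were, 7.05% in all. Both calls of HSD17B12 rest on a probe set whose DMSO signal was in the dim range, and with such signals raised to 56.6 the call for SCD1-KO was lost. Its brightest probe set alone reached 1.96-fold under T-3764518 and 1.51-fold after SCD1 loss, short of a call. ELOVL6 stood at 1.71-fold of DMSO under T-3764518 and at 0.892-fold after SCD1 loss. HACD3 was 0.782-fold with T-3764518, with all 4 of its probe sets below DMSO, and 1.03-fold in SCD1-KO cells. Over the 7 genes the median log2 ratio was 0.16 for T-3764518, beside -0.087 over all kept genes, and -0.16 for SCD1-KO, beside -0.011. Both ratios share the DMSO array. Counts over 7 genes are given as a description.

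**Figure D1:**
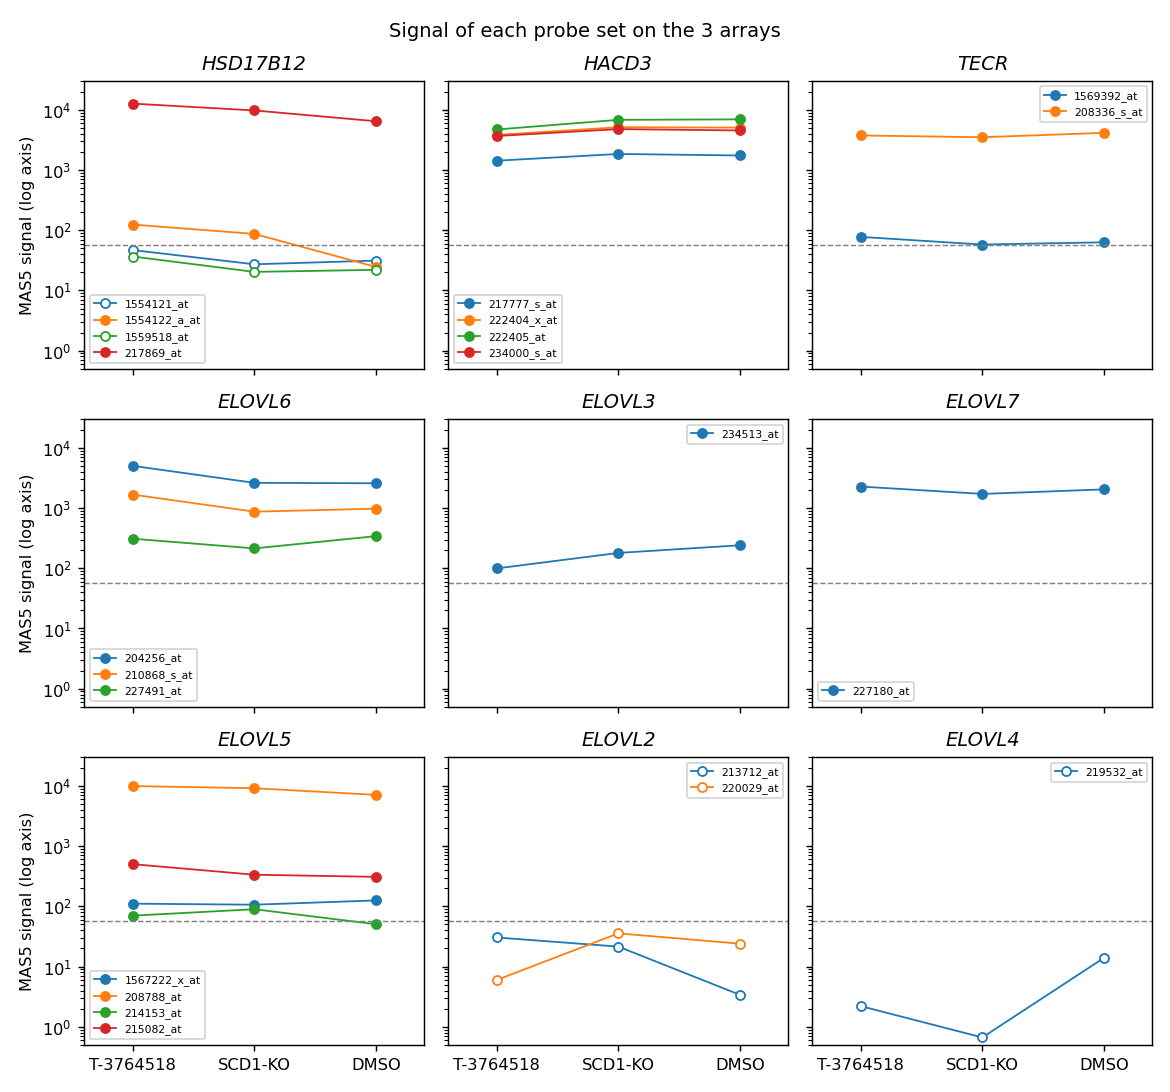
MAS5 signal (log axis) of every single-gene probe set of 9 elongation genes on the arrays of T-3764518, SCD1-KO and DMSO, 1 array each. Filled points are kept probe sets, open points dim ones, and the dashed line is the signal of 56.6. The brightest probe set of HSD17B12 was highest with T-3764518 (12651), while both probe sets of ELOVL2 and the 1 of ELOVL4 lay under the line on every array.

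ELOVL6, which makes the stearate that SCD1 desaturates, was read by 3 kept probe sets. The brightest, 204256_at, had a signal of 5015 with T-3764518, 2622 in knockout cells and 2580 with DMSO. Probe set 210868_s_at gave 1672 with T-3764518, 871 in knockout cells and 976 with DMSO. The dimmest of the 3, 227491_at, gave 310 with T-3764518, 214 in knockout cells and 341 with DMSO. So the brighter pair placed T-3764518 above both other arrays, and the dimmest placed it between them. The log2 ratios with T-3764518 were 0.96, 0.78 and -0.14, with a median of 0.78, and 3.77% of all kept genes were as high or higher. Probe sets of genes in this quintile of signal differ with an SD of 0.32. Scaling to 1 median brings ELOVL6 to 1.06 with T-3764518, past the threshold of a call, as in 1 of 10 alternative settings. Leaving out _s_at and _x_at probe sets brings it to 0.41, the lowest of these settings. For SCD1-KO the log2 ratios were 0.023, -0.16 and -0.67, with a median of -0.16. The sign of that median depends on the probe set, since the brightest alone gives 0.023.

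ELOVL3, an elongase of saturated and monounsaturated chains known in mice from brown fat and skin, was read by 1 probe set. Its signal was 99.6 with T-3764518, 180 in knockout cells and 241 with DMSO. It was thus lowest with T-3764518, and all 3 signals lay above the dim range. The log2 ratio was -1.27 with T-3764518, 2.42-fold lower, and 1.36% of all kept genes were as low or lower. In SCD1-KO cells the ratio was -0.42, or 0.746-fold, and 18.2% of kept genes were as low or lower. ELOVL3 stood in the second dimmest quintile of genes, where 3.86% were called lower with T-3764518 and the SD between probe sets of 1 gene was 0.44. With 1 probe set there was no other reading of this gene. Scaling to 1 median brings the ratio with T-3764518 to -0.995, just short of a call, and the filter at percentile 75 leaves the gene out.

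ELOVL7, which also takes saturated chains, was read by 1 probe set with a signal of 2274 with T-3764518, 1716 in knockout cells and 2042 with DMSO. Its log2 ratios were 0.16 and -0.25, both within the SD of 0.26 and 0.25 between probe sets of genes this bright. ELOVL1 is the remaining elongase of saturated chains. Its 2 probe sets are annotated to a microRNA gene as well, and no value is given for it.

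ELOVL5, which lengthens polyunsaturated chains taken from the diet, was read by 4 kept probe sets. The brightest, 208788_at, had a signal of 9927 with T-3764518, 9148 in knockout cells and 7095 with DMSO. Probe set 215082_at gave 501 with T-3764518, 335 in knockout cells and 309 with DMSO. The DMSO array was lowest in both, and SCD1-KO cells lay nearer to T-3764518 in the first and nearer to DMSO in the other. The dimmest, 214153_at, gave 70.0 with T-3764518, 89.5 in knockout cells and 50.5 with DMSO, so its ratios are lower bounds of 1.24-fold and 1.58-fold. Probe set 1567222_x_at, of a kind that can bind several transcripts, went the other way, with 111, 106 and 125. The median log2 ratio over the 4 was 0.48 for T-3764518, or 1.39-fold, and 0.24 for SCD1-KO, or 1.18-fold. As many as 9.24% and 26.9% of all kept genes were as high or higher in these ratios, so neither stands out from the array. ELOVL5 was positive in both ratios under each of the 10 alternative settings that were run on the signals, with log2 ratios of 0.37 to 0.76 for T-3764518 and 0.24 to 0.38 for SCD1-KO.

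ELOVL2, the other elongase of polyunsaturated chains, and ELOVL4 were dim. Probe set 213712_at of ELOVL2 had a signal of 30.4 with T-3764518, 21.4 in knockout cells and 3.40 with DMSO. Probe set 220029_at of the same gene gave 6.0 with T-3764518, 35.6 in knockout cells and 24.0 with DMSO. The probe sets put the T-3764518 array at opposite ends. ELOVL4 had signals of 2.2 with T-3764518, 0.665 in knockout cells and 13.9 with DMSO. All 9 signals lay under 56.6, so no fold is given for these genes, and neither is among the 7 genes whose calls are counted above.

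**Figure D2:**
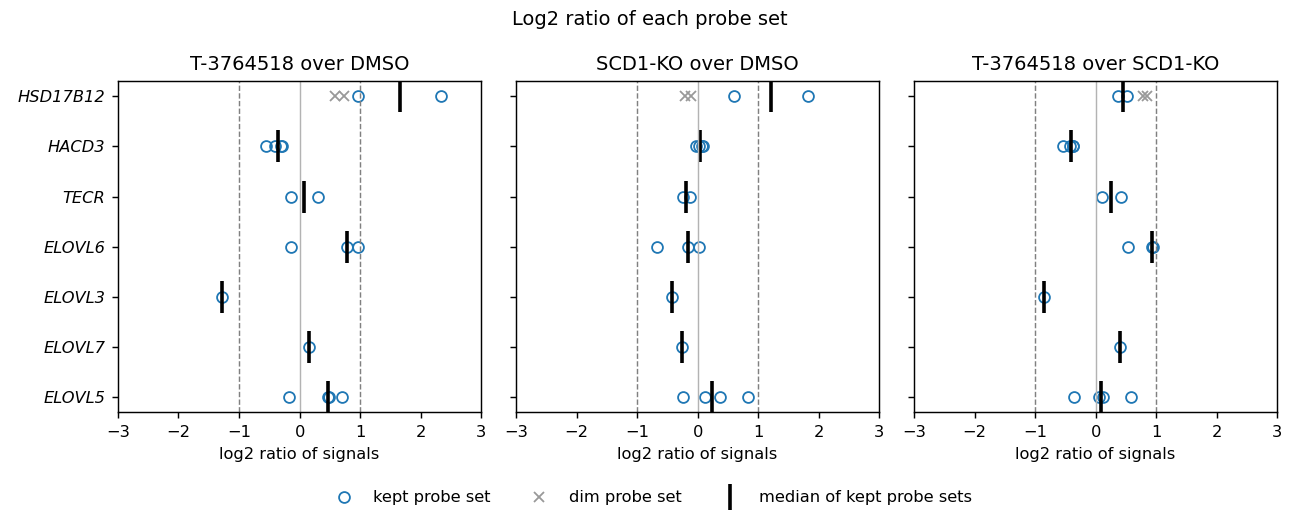
Log2 ratio of signals for each probe set of the 7 genes with a kept probe set, for T-3764518 over DMSO, SCD1-KO over DMSO and T-3764518 over SCD1-KO. Circles are kept probe sets, crosses dim ones, black bars the median of the kept probe sets and dashed lines 2-fold. HSD17B12 lies to the right of 0 in all 3 panels by its kept probe sets, and the 4 probe sets of HACD3 lie to the left of 0 with T-3764518 and around 0 in SCD1-KO cells.

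HSD17B12, the ketoacyl-CoA reductase that serves every elongase, was read by 4 probe sets, of which 2 were kept. The brightest, 217869_at, had a signal of 12651 with T-3764518, 9746 in knockout cells and 6455 with DMSO. The other kept probe set, 1554122_a_at, gave 124 with T-3764518, 86.9 in knockout cells and 24.6 with DMSO. Both ordered the arrays alike, with T-3764518 highest and DMSO lowest. But 1554122_a_at had a mean signal of 64.2 and passed the filter at 56.6 only through the T-3764518 and SCD1-KO arrays. Its place above DMSO is therefore no independent reading. The log2 ratios of 217869_at were 0.97 for T-3764518 and 0.59 for SCD1-KO. In the gene's quintile of signal, the second brightest, the SD between probe sets was 0.32 and 0.31. Neither kept probe set lay in that range of signal. The SD was 0.26 and 0.25 in the brightest quintile, where 217869_at lay, and 0.57 and 0.60 in the dimmest, where 1554122_a_at lay. For 1554122_a_at, whose DMSO signal was under 56.6, the ratios are at least 2.19-fold and at least 1.54-fold. The dim probe sets gave 46.8 and 36.6 with T-3764518, 27.2 and 20.3 in knockout cells, and 31.3 and 22.0 with DMSO. They were highest with T-3764518 as well, but in SCD1-KO cells they lay below DMSO.

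The gene's log2 ratio over its kept probe sets was 1.65 for T-3764518 and 1.21 for SCD1-KO, and 0.625% and 2.01% of all kept genes were as high or higher. These values and shares use the DMSO signal of 24.6 as measured. With signals under 56.6 raised to that level in all genes, the ratios were 1.05 and 0.61, and 1.77% and 9.07% of kept genes were as high or higher. Read from the brightest probe set alone they were 0.97 and 0.59. Both kept probe sets were above DMSO in both ratios, and the dim pair was above it with T-3764518 only.

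HACD3, a hydroxyacyl-CoA dehydratase of the elongation cycle, was read by 4 probe sets that were all kept and bright. The brightest, 222405_at, had a signal of 4707 with T-3764518, 6806 in knockout cells and 6927 with DMSO. Probe set 222404_x_at gave 3831 with T-3764518, 5126 in knockout cells and 5063 with DMSO. Probe set 234000_s_at gave 3668, 4776 and 4534 on the same arrays, and 217777_s_at gave 1427, 1847 and 1741. In each of the 4 the T-3764518 array was lowest, while SCD1-KO cells and DMSO were close to each other. The log2 ratios with T-3764518 ran from -0.56 to -0.29 with a median of -0.35, against an SD of 0.26 between probe sets of the brightest genes. In SCD1-KO cells they ran from -0.025 to 0.085 with a median of 0.047, a sign that turns when 222405_at is used alone. Of the 1151 genes with 4 or more kept probe sets, 21.6% had all of them below 0 with T-3764518, so this pattern was common on the array. Scaling the arrays to 1 median, which moves the median of all kept genes by 0.28, brings HACD3 to -0.075.

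TECR, the reductase that closes the cycle, had a signal of 3745 in probe set 208336_s_at with T-3764518, 3498 in knockout cells and 4140 with DMSO. Its other kept probe set, 1569392_at, gave 77.4 with T-3764518, 57.8 in knockout cells and 63.0 with DMSO, close to the dim range. The probe sets disagreed on T-3764518, with log2 ratios of -0.14 and 0.30, and were both below 0 in SCD1-KO cells at -0.24 and -0.12. The median ratios, 0.076 and -0.18, were smaller than the SD of 0.37 between probe sets in the gene's quintile, a range of signal in which neither probe set lay. The sign of the first changes with the probe set that is read.

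**Figure D3:**
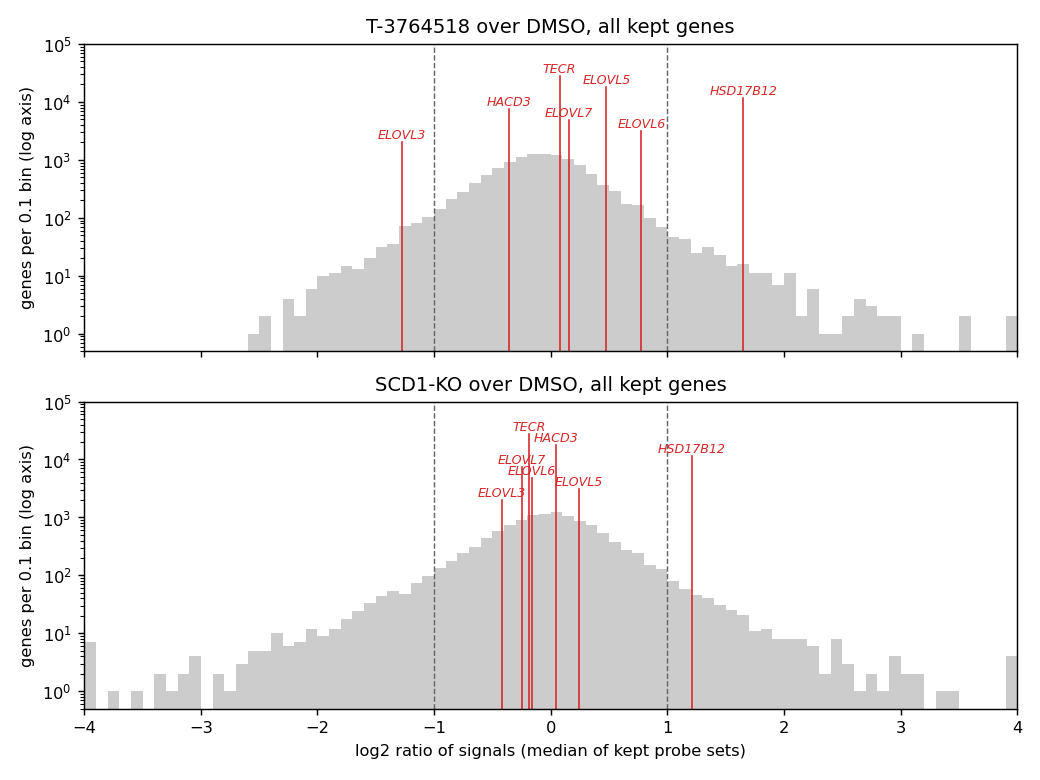
Number of genes (log axis) in each 0.1-wide bin of log2 ratio for the 12321 kept genes, with T-3764518 over DMSO above and SCD1-KO over DMSO below, values beyond 4 on either side drawn in the outermost bins. Red lines mark the 7 elongation genes and dashed lines 2-fold. HSD17B12 lies in the right tail of both, at 1.65 and 1.21, and ELOVL3 in the left tail with T-3764518 at -1.27.

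T-3764518 and SCD1 loss were also set against each other on their own arrays, without the DMSO array. The question is where drug and knockout gave different signals for the same gene. None of the 7 genes was 2-fold higher or lower with T-3764518 than in SCD1-KO cells, where 3.1% and 4.52% of all kept genes were, 7.62% in all. ELOVL6 came nearest, with 0.94, 0.94 and 0.53 in its 3 probe sets and a median of 0.94, or 1.91-fold, and 3.6% of kept genes were as high or higher. ELOVL3 was at -0.85 from its 1 probe set, or 1.81-fold lower with T-3764518, and 6.83% of kept genes were as low or lower. HACD3 was at -0.40, with 4 of 4 probe sets below 0 from -0.53 to -0.37. Of genes with 4 or more kept probe sets, 18.7% had all of them below 0 in this ratio. HSD17B12 was at 0.44, with both kept probe sets above 0 at 0.38 and 0.51. ELOVL7 was at 0.41, TECR at 0.26 and ELOVL5 at 0.088, the last with probe sets from -0.36 to 0.58. In this comparison 11 of the 17 kept probe sets of the list were above 0 and 6 below. These are repeated readings of the 7 genes, of which 5 were above 0, where 44.8% of all kept genes were.

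Of 4 other enzymes of the cycle, 1 had a kept probe set. HACD2, the dehydratase paralog of HACD3, had a signal of 4713 in probe set 212640_at with T-3764518, 3919 in knockout cells and 4534 with DMSO, and of 707, 524 and 603 in 227741_at on the same arrays. Both were highest with T-3764518 and lowest in SCD1-KO cells, and the gene's log2 ratios were 0.14 and -0.21. HACD4 had signals of 1.40 and 1.00 with T-3764518, 20.5 and 2.95 in knockout cells, and 5.40 and 8.80 with DMSO, all dim. TECRL, a paralog of TECR, was dim too, at 1.30, 0.863 and 1.00, and HACD1 was not named by a single-gene probe set.

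Of 5 genes that supply palmitate and malonyl-CoA, 2 were called higher in both ratios and 0 lower. They were ACSS2, which makes acetyl-CoA from acetate, and FASN, the fatty acid synthase. Over all kept genes, 2.18% were called higher and 3.3% lower with T-3764518, and 3.12% and 3.93% in SCD1-KO cells. The share called higher in both ratios, which share the DMSO array, was not counted. FASN had a signal of 2056 with T-3764518, 1982 in knockout cells and 941 with DMSO. These 5 genes had a median log2 ratio of 0.64 for T-3764518 and 0.68 for SCD1-KO, beside -0.087 and -0.011 over all kept genes. ACACB, an acetyl-CoA carboxylase of mitochondria, was the 1 gene below 0, at -0.98 and -0.54, with all 4 of its kept probe sets below 0 in both ratios. The brightest, 1552615_at, was at -0.10 with T-3764518. The gene stood in the dimmest quintile, where 10.4% and 24.8% of genes were as low or lower. Of genes with 4 or more kept probe sets, 21.6% and 18.2% had all of them below 0. Of 4 kept desaturase genes, SCD was called higher in both ratios, and its 4 probe sets ran from 0.72 to 3.10 for T-3764518 and from 0.017 to 1.36 for SCD1-KO. The probe sets are not placed against the deleted part of the gene, so this signal does not check the knockout. SCD was also the desaturase called higher with T-3764518 than in SCD1-KO cells, at 1.62, where 3.1% of all kept genes were. In that ratio 2 of the 4 kept desaturase genes were above 0 and 2 below. The part of the edited SCD locus in it was not tested.

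Acyl-CoA synthetases activate long and very long chains before they are elongated or used. Of 10 kept genes of this kind, ACSL1 was called higher in both ratios (1.03 and 1.02). SLC27A3 was called lower with T-3764518 (-1.06). In SCD1-KO cells SLC27A4 was called higher (1.13), and ACSL5 (-1.41) and ACSBG2 lower. ACSBG2 had a dim signal of 49.1 in SCD1-KO cells against 103 with DMSO, so it is at least 1.82-fold lower there, and its call was lost with the floor and under each of the other 3 scalings. The call of SLC27A3 was lost under the same 3 scalings, at -0.92 to -0.78. Ceramide synthases join very long chains to sphingoid bases. All 5 kept ceramide synthase genes were below 0 in both ratios, where 41.0% and 48.9% of all kept genes were above 0. Scaling to 1 median puts 3 of the 5 above 0 for T-3764518 and 2 for SCD1-KO, and quantile normalization and lowess each put 1 above 0 for T-3764518. As reported, the medians were -0.23 and -0.33, and CERS4 was called lower with T-3764518 at a signal of 83.2 against 212 with DMSO. CERS4 stood in the dimmest quintile, where 9.86% of genes were called lower with T-3764518. Genes of peroxisomal import and oxidation of very long chains had 3 kept members and 0 calls. Among 11 kept regulators, INSIG1, which holds SREBP in the endoplasmic reticulum, was called higher in both ratios (2.69 and 1.79), and INSIG2 was called lower in SCD1-KO cells (-1.38). INSIG2 was called higher with T-3764518 than in SCD1-KO cells (1.13), where 3.1% of all kept genes were. The probe sets of SREBF1 went opposite ways. The brighter, 202308_at, with a DMSO signal of 1678, gave 0.69 for T-3764518 and 1.00 for SCD1-KO. The dimmer, 1558875_at, with a DMSO signal of 189, gave -0.65 and -0.25. The 3 probe sets of SREBF2 ran from -0.49 to 0.53 for T-3764518 and from -0.42 to 0.19 for SCD1-KO.

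**Figure D4:**
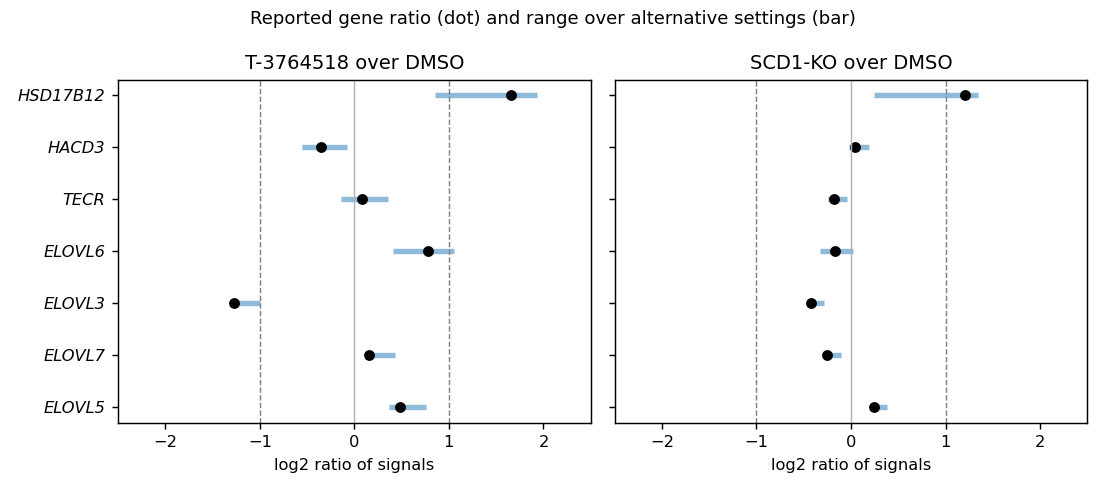
Log2 ratio of the 7 genes with a kept probe set as reported (dot) and its range over up to 10 alternative settings of scaling, filter, floor and probe set choice (bar), for T-3764518 over DMSO and SCD1-KO over DMSO, with dashed lines at 2-fold. The bar of HSD17B12 runs from 0.85 to 1.93 for T-3764518 and from 0.24 to 1.35 for SCD1-KO, its low ends from letting in the dim probe sets, and 0 is crossed by the bar of TECR for T-3764518 and by the bars of ELOVL6 and HACD3 for SCD1-KO.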

How the data were processed

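Total RNA of HCT-116 cells was hybridised to the Human Genome U133 Plus 2.0 Array, and the authors deposited 1 signal intensity for each of 54675 probe sets on a linear scale. The submitters' processing notes name MAS5, and the sources used here give no version. Signals were not normalised further. Genes were assigned by the platform's annotation table, in which 41091 probe sets carried 1 gene symbol, 1801 carried several and 11777 were not listed with a gene, and 41037 of the first kind matched a RefSeq gene of GRCh38.p14 by gene ID, as did all 22 of the list. The 62 control probe sets were left out. Log2 ratios, the filter at percentile 50 and the call at 2-fold are given beside the results. The members and gene lists were chosen with earlier results of these data known. All 10 genes are named, with called genes of the related lists and all other cycle enzymes; ACACB, SREBF1 and SREBF2 were added after their values were seen. The computation of ratios was tested on simulated data with known fold changes, which gives no error for the calls on these arrays. A comparison of proteins was not run. Having 1 array in each condition limits the precision. Figures were drawn with matplotlib 3.10.9, and values computed in Python 3.11.15 with pandas 2.3.3, numpy 2.4.6, statsmodels 0.14.6 and scipy 1.17.1. Alternatives were quantile normalization, scaling to 1 median, lowess, omission of the filter or a stricter one at percentile 75, 16 added to each signal, a floor at the median signal, the brightest probe set, the mean over probe sets, omission of _s_at and _x_at probe sets, and thresholds of 1.5-fold and 3-fold; those for T-3764518 over SCD1-KO and for the related lists were added after the data were seen.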

Additional observations from a re-analysis of the deposited data

How the results depend on the processing

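No paired analysis was possible because each condition had 1 array, and for the same reason no array could be left out. With T-3764518 the 1 gene called higher became 2 after scaling to 1 median (ELOVL6 joined) or at 1.5-fold, and 0 with no filter, with the filter at percentile 75 or from the brightest probe set. The 1 gene called lower became 0 after scaling to 1 median, with the filter at percentile 75 or at 3-fold, and 2 with no filter. In SCD1-KO cells the 1 gene called higher became 0 with the filter at percentile 75, the offset of 16, the floor, the brightest probe set or the threshold of 3-fold. With no filter the count stayed at 1, but HSD17B12 fell to 0.24 and lost its call. The gene called higher there was ELOVL2, from dim probe sets. The 0 called lower became 1 with no filter. For T-3764518 over SCD1-KO, 0 higher became 1 after scaling to 1 median, with no filter or at 1.5-fold, and 0 lower became 1 with no filter or at 1.5-fold. The filter at percentile 75 drops ELOVL3 and the dimmer probe set of HSD17B12, and no filter lets in dim probe sets, ELOVL4 among them, whose ratios are not measured. The median over members kept its sign in each setting run, over 9 genes with no filter, 6 at percentile 75 and 7 otherwise. It lay between 0.15 and 0.43 for T-3764518 (0.16 as reported), between -0.18 and -0.012 for SCD1-KO (-0.16 as reported), and between 0.12 and 0.41 for T-3764518 over SCD1-KO (0.26 as reported). Of 207 single-gene values, which repeat the same gene ratios over the settings, 196 moved by less than the SD between probe sets. Many could not move, since a gene read by 1 probe set has the same value under each choice of probe set. A change of sign was looked for only in the called ratios, of HSD17B12 and ELOVL3, and 0 were found. This count is therefore no measure of how firm the ratios are. Scaling to 1 median moved the median of all kept genes by 0.28 for T-3764518, 0.14 for SCD1-KO and 0.14 for T-3764518 over SCD1-KO, and the share of called genes that were higher with T-3764518 was 39.8% as reported, 58.1% after quantile normalization, 77.2% after scaling to 1 median and 59.9% after lowess. In SCD1-KO cells it was 44.3% as reported and 61.0% after scaling to 1 median, and for T-3764518 over SCD1-KO 40.7%, against 53.2% after quantile normalization, 57.7% after scaling to 1 median and 53.2% after lowess. Over all genes, 269 higher and 407 lower with T-3764518 became 1680 and 2870 with no filter, 150 and 69 with the filter at percentile 75, 551 and 163 after scaling to 1 median, 363 and 262 after quantile normalization, and 365 and 244 after lowess. In SCD1-KO cells 385 and 484 became 1783 and 2988 with no filter and 151 and 173 at percentile 75, and for T-3764518 over SCD1-KO 382 and 557 became 2369 and 2385, and 167 and 143. Signals near or under 56.6 limit what can be read of ELOVL2, ELOVL4 and the dimmer probe sets of HSD17B12 and TECR.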
